A study of Mus musculus with 32 samples.

Results

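The genes described here are 5 genes of ketone body synthesis, use and transport: Acat1, Bdh1, Oxct1, Slc16a1 and Slc16a6. They were chosen by name from among the 20076 genes counted in the liver libraries, with earlier results of these data known. All 5 passed the filter on low counts and so were among the 11566 genes tested. They were followed in male C57BL/6J mice across 8 groups, WT or MCAD-KO (Acadm-knockout, below KO), on a low-fat (LF) or high-fat (HF) semisynthetic diet for 6 weeks, and either fed or fasted for 16 h. WT mice were littermates, and the knockout affects the whole animal. Ages as labelled ran from 7.5 to 16, with no unit given, and the study's methods state an age of 2 to 4 months. Of 32 libraries, 4 in each group, 30 were used. Left out were the library labelled KO HF fasted replicate 4 and, of the WT LF fed mice, replicate 2, so that each of these groups has 3 mice.

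Ketone bodies are made in liver mitochondria from the acetyl-CoA that fatty acid oxidation yields, and leave the liver for tissues such as heart, muscle and brain. Acat1 encodes the thiolase that interconverts acetyl-CoA and acetoacetyl-CoA. Bdh1 encodes the dehydrogenase that interconverts acetoacetate and 3-hydroxybutyrate, and Oxct1 the transferase with which other tissues, but hardly hepatocytes, take ketone bodies into use. Slc16a1 (MCT1) and Slc16a6 (MCT7) encode monocarboxylate transporters of the plasma membrane. MCAD, the product of Acadm, oxidizes medium-chain fatty acids upstream of this pathway.

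Levels are given as CPM, the counts of a gene scaled to a common library total and corrected by a TMM factor. Because the libraries were made from the 3′ ends of transcripts and genes differ in how they are captured, CPM was compared between mice and not between genes. Total counts ran from 2031053 to 4292200 per mouse (median 2899001), and 3 counts corresponded to 0.699 to 1.48 CPM. Acadm itself was at 18.8 ± 8.03 CPM in KO mice (SD, n = 15) and 453 ± 197 CPM in WT mice (n = 15), and every KO mouse lay below every WT mouse. Whether the 3′ reads of Acadm lie in the altered part of the gene is not given in the sources used here. The sum of 9 hepatocyte markers, among them Alb, Apoa1 and Apoa2, was 50750 to 79590 CPM in the 30 libraries. In the library labelled KO HF fasted replicate 4 it was 941 CPM, and the sum of 12 heart markers was 47338 CPM against at most 369 CPM in the 30 libraries. In the library labelled WT LF fed replicate 2 the summed stellate cell markers were 1283 CPM (438 to 691 CPM in the 30) and the summed bile duct markers 336 CPM (48.9 to 96.8 CPM in the 30). Of the 30, 3 held 274 CPM or more of skeletal muscle markers, and 2 held over 1000 CPM of acinar pancreas markers (2453 CPM in KO HF fed replicate 1 and 16796 CPM in WT HF fasted replicate 2). These were kept, and the results they touch are also given without them. The sum of 8 adrenal cortex markers ran up to 294 CPM in KO LF fasted mice (group median 62.95 CPM), where the median of the 30 was 1.32 CPM. The libraries high in adrenal cortex markers were kept as well, and no fit left them out together.

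Fasting changed 3 of the 5 genes. Slc16a1 and Acat1 rose, Slc16a6 fell, and Bdh1 and Oxct1 did not pass the test. Of all genes tested, 18.9% passed in this comparison of the 4 fasted with the 4 fed groups (9.77% higher, 9.14% lower, edgeR quasi-likelihood test, adjusted p below 0.05). The median log2 fold change of the 5 genes was -0.01, and that of all genes tested 0.00. Fasting also moved some markers of other cells: 2 of 8 stellate cell markers fell (Lrat and Col3a1), 2 of 5 tested erythroid markers (Hbb-bt and Alas2), 1 of 4 tested bile duct markers (Spp1) and 1 of 10 Kupffer cell and macrophage markers (Adgre1), and 1 of 8 endothelial markers rose (Lyve1). Of 9 hepatocyte markers 2 rose (Apoa1 and Apoa2) and 1 fell (Ttr). None of the tested markers of heart, skeletal muscle, lymphocytes, acinar pancreas, adrenal cortex or adipose tissue passed for fasting. The summed Kupffer cell and macrophage markers were 454 to 640 CPM in fed and 316 to 836 CPM in fasted mice, the summed erythroid markers 532 to 1206 and 460 to 1287 CPM, the stellate cell markers 442 to 691 and 438 to 615 CPM, and the bile duct markers 55.3 to 96.1 and 48.9 to 96.8 CPM. Their part in the changes described here was not tested. In bulk tissue, fewer cells of a type and less RNA per cell cannot be told apart.

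**Figure D1:**
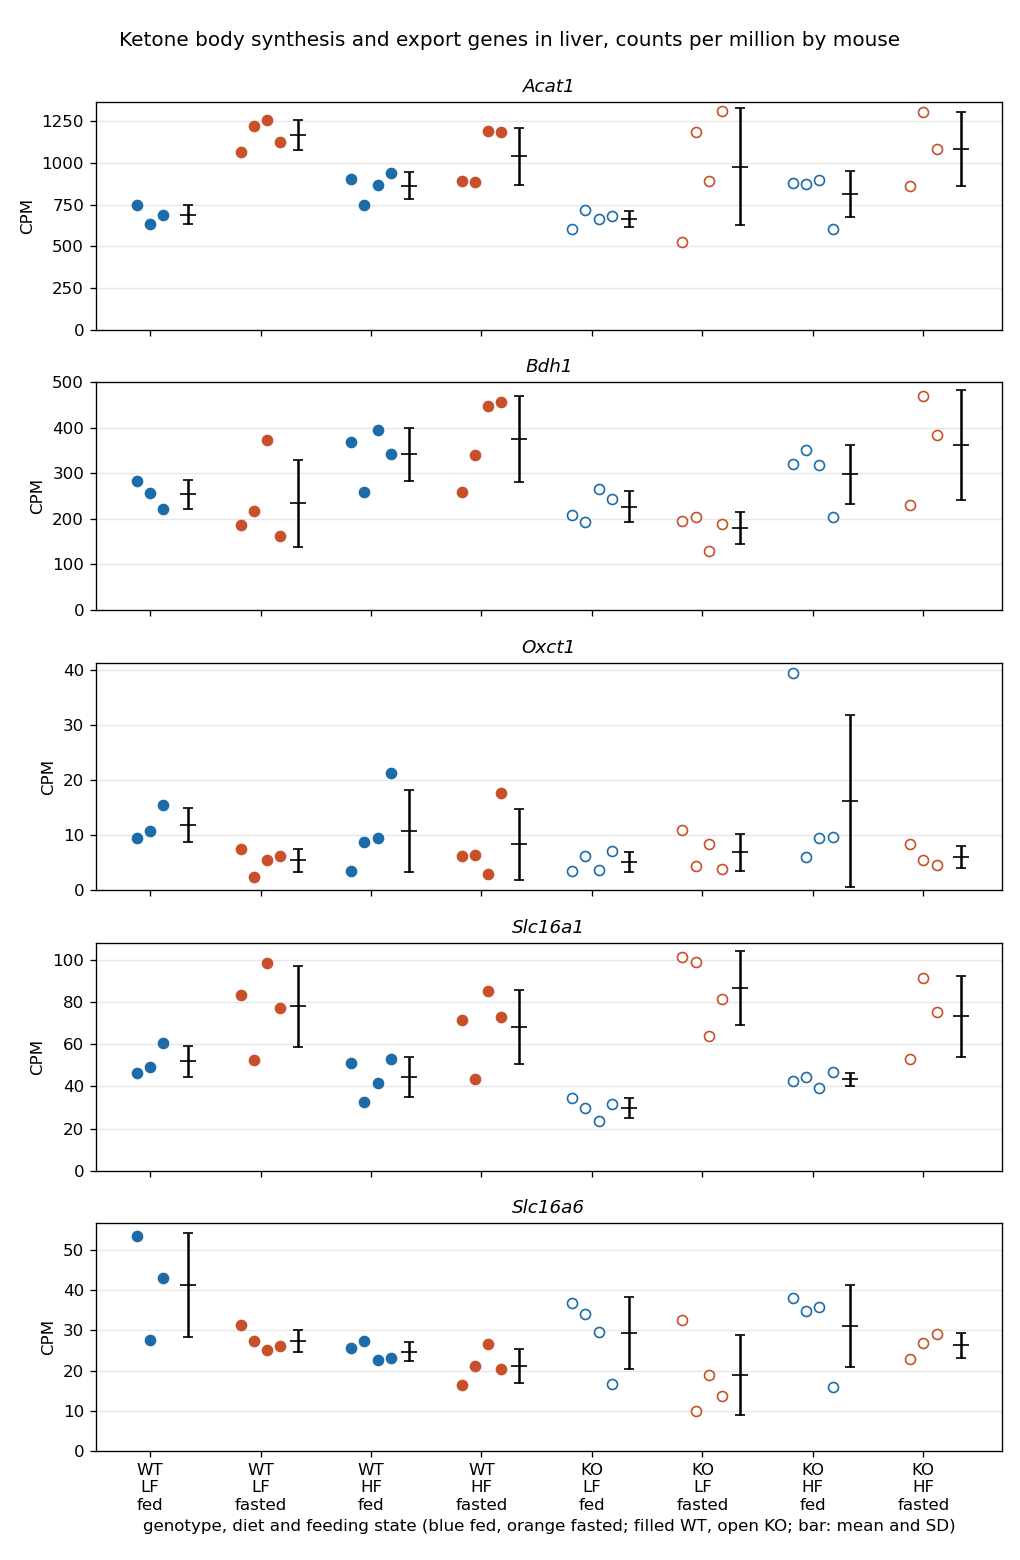
Level of each gene in each of the 30 mice, in CPM on linear axes that start at 0, with fed mice in blue, fasted mice in orange, WT mice filled and KO mice open. The black bars are the mean and SD of the group. The mean of Slc16a1 is higher in fasted than in fed mice in every combination of genotype and diet, that of Bdh1 is higher on the HF diet, and a single KO HF fed mouse holds the highest Oxct1 level, 39.5 CPM.

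Slc16a1 lies on chromosome 3 at 104638668 to 104658462, plus strand (GRCm38). Its product carries lactate, pyruvate and ketone bodies across the membrane with a proton. The 250 bases before its RefSeq start (GRCm38.p6, chr3:104638414-104638663, plus strand) are shown because it was the member that changed most clearly with fasting.

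Slc16a1: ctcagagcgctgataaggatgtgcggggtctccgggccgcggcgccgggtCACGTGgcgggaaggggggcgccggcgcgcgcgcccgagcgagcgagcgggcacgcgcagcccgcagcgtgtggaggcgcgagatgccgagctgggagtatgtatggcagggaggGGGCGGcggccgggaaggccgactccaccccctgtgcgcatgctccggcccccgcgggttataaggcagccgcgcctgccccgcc

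Capitals mark the only matches to 3 motifs searched on both strands: AGGTCA, a core element bound by PPAR and other nuclear receptors, the E-box CACGTG, and the GC box GGGCGG. This window held 1 E-box, 1 GC box and no nuclear receptor element. Of the 32851 RefSeq windows of the same length, 6.02% held the E-box, 32.7% the GC box and 14.0% the nuclear receptor element. The window was 76.4% G or C, where the median of all windows was 52.4%. A match describes the letters only.

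In WT LF mice, Slc16a1 was at 46.1, 49.0 and 60.3 CPM when fed and at 83.4, 52.6, 98.3 and 77.2 CPM when fasted. In WT HF mice it was at 50.9, 32.6, 41.4 and 53.0 CPM when fed and at 71.6, 43.3, 85.0 and 72.8 CPM when fasted. In both WT pairs 1 fasted mouse lay within the range of the fed mice. In KO LF mice it was at 34.6, 29.9, 23.4 and 31.6 CPM when fed and at 101, 98.9, 63.8 and 81.3 CPM when fasted. In KO HF mice it was at 42.6, 44.3, 39.3 and 46.8 CPM when fed and at 53.1, 91.2 and 75.3 CPM when fasted. In both KO pairs every fasted mouse lay above every fed mouse, which held for 13.7% of genes tested in KO LF mice and for 10.5% in KO HF mice, in either direction.

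Over all groups Slc16a1 was at 41.7 ± 9.93 CPM in fed mice (n = 15) and 76.6 ± 17.7 CPM in fasted mice (n = 15), a 1.83-fold rise (log2 fold change 0.88, SE 0.11, adjusted p = 6.542e-08). Among the 11566 genes it ranked 146 by p. Fits within a lane had terms for feeding, diet and genotype instead of the 8 groups, and lane 7 held no WT LF fed mouse. The fasting effect on Slc16a1 was 0.88 (SE 0.19) within sequencing lane 7 and 0.86 (SE 0.14) within lane 8, past the threshold in both. Within single combinations, in the fit of the 30 mice, it passed in KO LF mice, by 1.53 (SE 0.21, adjusted p = 2.086e-06), or 2.90-fold, where 13.8% of all genes passed (7.54% in WT LF, 0.424% in WT HF and 0.527% in KO HF mice). The log2 fold change was 0.59 (SE 0.22) in WT LF, 0.62 (SE 0.21) in WT HF and 0.76 (SE 0.22) in KO HF mice, with adjusted p of 0.109, 0.2094 and 0.1365. Whether these 3 effects passed turned on single mice. The rise passed in WT LF mice without fasted replicate 2 (0.74, adjusted p = 0.04478), in WT HF mice without fasted replicate 2 (0.78, adjusted p = 0.04223) and in KO HF mice without fasted replicate 1 (0.94, adjusted p = 0.03654). The difference of the fasting effect between genotypes was 0.54 (SE 0.21, unadjusted p = 0.01574, adjusted p = 0.9417), so that a larger rise in KO mice was not established.

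In fed mice on the LF diet, Slc16a1 was at 29.9 ± 4.76 CPM in KO LF fed mice (n = 4) and 51.8 ± 7.50 CPM in WT LF fed mice (n = 3), and the groups did not overlap, as for 6.68% of all genes in this comparison. The log2 fold change was -0.79 (SE 0.23, unadjusted p = 0.001178, adjusted p = 1), and the exact permutation test gave 0.02857, the smallest p that 4 against 3 mice allow. All 4 WT LF fed libraries were sequenced in lane 8, and the KO LF fed libraries in both lanes. On the HF diet fed KO mice were higher than fed KO mice on the LF diet in every animal (43.3 ± 3.13 against 29.9 ± 4.76 CPM, log2 fold change 0.53, SE 0.21, adjusted p = 0.5225), and such a separation held for 5.75% of all genes.

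Acat1 lies on chromosome 9 at 53580522 to 53610382, minus strand. In WT LF mice it was at 748, 633 and 687 CPM when fed and at 1068, 1224, 1259 and 1123 CPM when fasted. Every fasted mouse lay above every fed mouse, as for 20.1% of genes in that comparison. In WT HF mice it was at 901, 748, 868 and 938 CPM when fed and at 894, 888, 1192 and 1184 CPM when fasted, and these groups overlapped. In KO LF mice it was at 603, 717, 662 and 680 CPM when fed and at 527, 1187, 889 and 1309 CPM when fasted. In KO HF mice it was at 879, 872, 900 and 605 CPM when fed and at 862, 1303 and 1085 CPM when fasted. Among KO LF fasted mice, replicate 1 had the lowest Acat1 level of all 30 mice and the other 3 lay above every fed mouse of their genotype and diet.

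Over all groups Acat1 rose with fasting from 763 ± 119 to 1066 ± 215 CPM (n = 15 each), 1.41-fold (log2 fold change 0.50, SE 0.10, adjusted p = 0.0001634). Within lanes the fasting effect on Acat1 was 0.34 (SE 0.17, adjusted p = 0.3375) in lane 7 and 0.69 (SE 0.11, adjusted p = 3.86e-05) in lane 8. It passed in WT LF mice (0.76, SE 0.20, adjusted p = 0.01413) and in KO LF mice (0.56, SE 0.19, adjusted p = 0.04017). The fasting effect was 0.27 (SE 0.19) in WT HF and 0.41 (SE 0.20) in KO HF mice, neither past the threshold. Its difference between diets was -0.32 (SE 0.19, adjusted p = 0.5288), with a 95% interval from -0.70 to 0.06. Of the 2 calls within single combinations, the one in KO LF mice was lost when any 1 of 6 of its 8 mice was left out, all but fasted replicates 1 and 3. It was also lost with limma voom (0.48, adjusted p = 0.09273). The one in WT LF mice was lost without fed replicate 3 or 4, and both were lost with all 32 mice.

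Slc16a6 lies on chromosome 11 at 109450855 to 109473598, minus strand. It encodes a transporter that has been linked to the release of ketone bodies from liver. Its exons share 1052 bases with those of Amz2 and 48 bases with those of Arsg, both on the opposite strand. The strand setting of the counting is not given in the sources used here, so that the assignment of reads in these bases is uncertain. The exons of Slc16a6 also share 49 bases with Gm25540, a miRNA gene on the same strand that was not among the genes counted. With fasting, Arsg rose by 0.69 on the log2 scale (adjusted p = 0.04487) and Amz2 was at 0.27 (adjusted p = 0.2587).

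In WT LF mice Slc16a6 was at 53.4, 27.5 and 42.9 CPM when fed and at 31.3, 27.3, 25.0 and 26.1 CPM when fasted. In WT HF mice it was at 25.7, 27.5, 22.6 and 23.1 CPM when fed and at 16.5, 21.1, 26.5 and 20.4 CPM when fasted. Fed and fasted mice overlapped in both, and the WT LF fed mice held the 2 highest levels of all 30 mice. In KO LF mice it was at 36.8, 34.1, 29.5 and 16.6 CPM when fed and at 32.7, 10.0, 19.0 and 13.7 CPM when fasted. In KO HF mice it was at 38.1, 34.7, 35.7 and 16.0 CPM when fed and at 22.9, 26.9 and 29.0 CPM when fasted. In both fed KO groups 3 mice were at 29.5 CPM or above and replicate 4 stood apart below.

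Over all groups Slc16a6 fell with fasting from 30.95 ± 9.97 to 23.2 ± 6.43 CPM (n = 15 each). The log2 fold change was -0.43 (SE 0.14, adjusted p = 0.03078), a 1.35-fold lower level. This call was near the threshold. The fasting effect on Slc16a6 held in 22 of the 30 fits that left out 1 mouse, where the value ran from -0.53 to -0.37, and it was lost within lane 7 (-0.48, adjusted p = 0.2532) and within lane 8 (-0.42, adjusted p = 0.3298). It was also lost without the 3 libraries high in skeletal muscle markers (-0.41, adjusted p = 0.07379) and without the 2 high in acinar pancreas markers (-0.40, adjusted p = 0.06393). No single combination of genotype and diet passed with all of its mice. In KO LF mice the fasting effect on Slc16a6 went from -0.66 (adjusted p = 0.1293) to -1.07 (adjusted p = 0.008238) without fasted replicate 1, and to -0.86 (adjusted p = 0.04707) without fed replicate 4.

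On the LF diet Slc16a6 was at 41.2 ± 13.0 CPM in WT fed mice (n = 3) against 24.7 ± 2.25 CPM on the HF diet (n = 4). The lowest WT LF value, 27.49 CPM, lay just above the highest WT HF value, 27.45 CPM, so that the groups did not overlap, which held for 8.33% of all genes. The adjusted p was 0.7723 (log2 fold change -0.74, SE 0.29). In KO mice the same difference was 0.09 (SE 0.27). Averaged over fed and fasted mice, the diet effect differed between genotypes by 0.86 (SE 0.29, unadjusted p = 0.005077, adjusted p = 1), and no gene of the 11566 passed this test with edgeR, while 397 had an unadjusted p below 0.05. All 4 WT LF fed libraries were sequenced in lane 8 and 3 of the 4 WT HF fed libraries in lane 7, so that diet and lane largely coincided in fed WT mice.

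**Figure D2:**
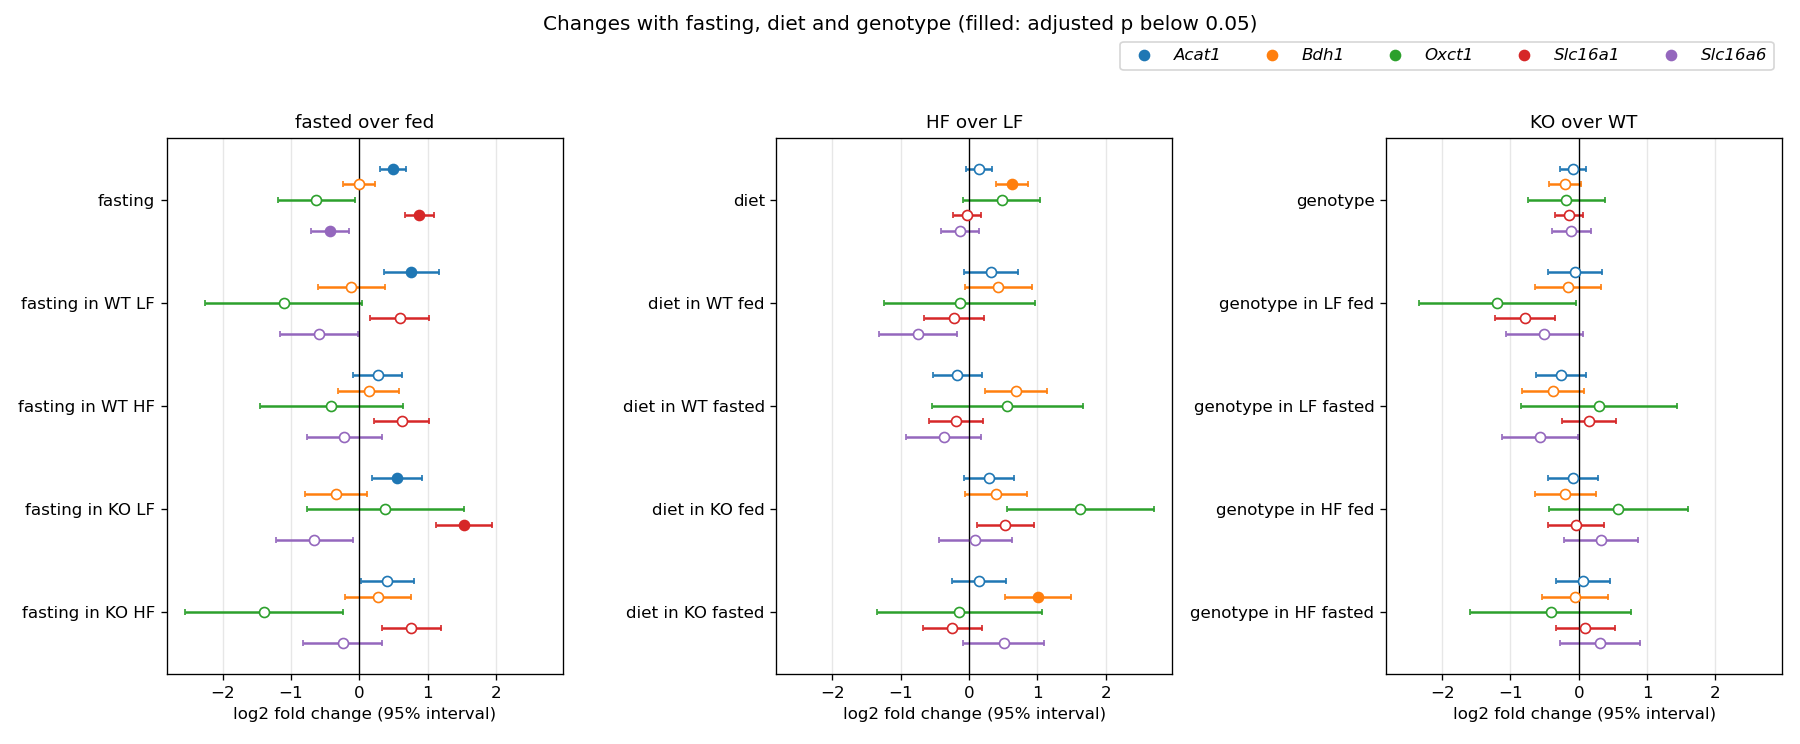
Log2 fold changes of the 5 genes with their 95% intervals, for fasted over fed, HF over LF and KO over WT mice, averaged over the groups in the top row of each panel and within single combinations below. Filled points passed the adjusted p threshold. The fasting panel shows Slc16a1 to the right of 0 in every row, the diet panel shows Bdh1 to the right of 0 in every row, and no point is filled in the genotype panel.

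The diet changed 1 of the 5 genes, Bdh1, where 3.49% of all genes passed (2.26% higher, 1.24% lower). Among the markers, 1 stellate cell gene (Col3a1) and 1 bile duct gene (Spp1) rose with the HF diet, 1 hepatocyte marker (Cps1) fell, and none of the other lists held a call. Bdh1 lies on chromosome 16 at 31422280 to 31458901, plus strand, and its exons share 533 bases with the antisense gene Gm15743. RefSeq gives it 2 starts on this strand. The 250 bases before each (GRCm38.p6, chr16:31422047-31422296 and chr16:31428503-31428752) are shown because it was the only member that changed with diet. Neither window held any of the 3 motifs, so that no letter is in capitals.

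Bdh1, first start: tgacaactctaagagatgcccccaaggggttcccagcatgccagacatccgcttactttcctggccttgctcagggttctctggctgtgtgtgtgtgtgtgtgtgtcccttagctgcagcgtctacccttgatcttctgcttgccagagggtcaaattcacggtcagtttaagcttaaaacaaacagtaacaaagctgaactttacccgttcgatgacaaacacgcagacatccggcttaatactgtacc
Bdh1, second start: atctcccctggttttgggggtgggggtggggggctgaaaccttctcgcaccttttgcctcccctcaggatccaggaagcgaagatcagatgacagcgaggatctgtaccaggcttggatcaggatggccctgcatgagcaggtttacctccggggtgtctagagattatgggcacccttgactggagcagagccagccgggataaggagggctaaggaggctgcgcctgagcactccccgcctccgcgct

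These windows were 49.6% and 60.8% G or C. In fed WT mice Bdh1 was at 284, 257 and 221 CPM on the LF diet and at 369, 259.5, 395 and 344 CPM on the HF diet. In fasted WT mice it was at 186, 217, 373 and 162 CPM on the LF diet and at 258, 341, 449 and 457 CPM on the HF diet. The WT groups overlapped between diets, through WT HF fed replicate 2 among fed mice and WT LF fasted replicate 3 and WT HF fasted replicates 1 and 2 among fasted mice. In fed KO mice it was at 208, 193, 266 and 243 CPM on the LF diet and at 321, 351, 319 and 204 CPM on the HF diet. In fasted KO mice it was at 196, 205, 129 and 189 CPM on the LF diet and at 232, 470 and 385 CPM on the HF diet. The last pair of groups did not overlap, as for 9.36% of all genes.

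Bdh1 was at 222 ± 57.9 CPM in LF mice (n = 15) and 344 ± 81.3 CPM in HF mice (n = 15), 1.55-fold higher (log2 fold change 0.63, SE 0.12, adjusted p = 0.001688, rank 62 by p). The diet effect on Bdh1 held in each of the 30 fits that left out 1 mouse (0.57 to 0.71), and without the 3 libraries high in skeletal muscle markers (0.59, adjusted p = 0.008907). Within lanes it was 0.78 (SE 0.17, adjusted p = 0.02591) in lane 7 and 0.51 (SE 0.18, adjusted p = 0.2598) in lane 8. By combination it was 0.43 (SE 0.25) in WT fed, 0.68 (SE 0.23) in WT fasted, 0.39 (SE 0.23) in KO fed and 1.01 (SE 0.25) in KO fasted mice. Only the last passed (adjusted p = 0.02599, with 1.68% of all genes, against 0.0778% in WT fed, 1.12% in WT fasted and 0.00865% in KO fed mice), and that call was lost in 5 of the 7 fits that left out 1 of its mice, all but those without KO HF fasted replicate 1 or KO LF fasted replicate 2. Without WT LF fasted replicate 3 the diet effect in WT fasted mice passed as well (0.998, adjusted p = 0.00931). Fasting left the mean of Bdh1 at 282 ± 64.4 CPM in fed and 283 ± 117 CPM in fasted mice, a log2 fold change of -0.01 with a 95% interval from -0.24 to 0.23. The fasting effect was -0.12 and -0.34 in LF mice (WT and KO) and 0.14 and 0.28 in HF mice, and its difference between diets was 0.43 (SE 0.24, adjusted p = 0.4592).

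The other 4 genes did not pass for diet. In fed WT mice Acat1 on the HF diet began, at 748.1 CPM, just above the highest LF level of 748.0 CPM (log2 fold change 0.32, SE 0.20, adjusted p = 0.9889), in a comparison where 8.33% of all genes did not overlap. These 2 groups lay mostly in different lanes. Over all groups, the log2 fold changes with diet of these 4 genes were 0.15 (95% interval -0.04 to 0.34) for Acat1, 0.48 (-0.08 to 1.04) for Oxct1, -0.03 (-0.24 to 0.18) for Slc16a1 and -0.13 (-0.41 to 0.15) for Slc16a6. The median over the 5 genes was 0.15, and over all genes tested 0.01.

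None of the 5 genes passed for genotype, where 0.00865% of all genes passed, which is Acadm alone. The log2 fold changes of KO over WT were -0.20 for Bdh1, -0.08 for Acat1, -0.18 for Oxct1, -0.14 for Slc16a1 and -0.11 for Slc16a6, with adjusted p of 1 for each. The unadjusted p of Bdh1, the smallest of the 5, was 0.1089, and 335 of all genes had an unadjusted p below 0.05 by edgeR. DESeq2 and limma voom also called 1 gene of the table, and 0 of these 5. The 95% intervals were -0.43 to 0.04 for Bdh1, -0.27 to 0.11 for Acat1, -0.35 to 0.07 for Slc16a1 and -0.39 to 0.18 for Slc16a6, and the widest was -0.74 to 0.38 for Oxct1. In fed LF mice Oxct1 did not overlap between genotypes either, at 3.52 to 7.20 CPM in KO and 9.61 to 15.5 CPM in WT mice (log2 fold change -1.19, SE 0.59, adjusted p = 1, exact permutation p 0.02857), as for 6.68% of all genes there. Here too all 4 WT LF fed libraries were in lane 8 and the KO LF fed libraries in both lanes. None of the 5 genes separated between genotypes in fasted LF, fed HF or fasted HF mice, where 2.13%, 2.65% and 5.27% of all genes did. None separated fasted from fed WT HF mice (5.93% of all genes) or the diets in fasted WT mice (7.23%). None of the 5 genes passed for a difference of one effect between levels of another. Of all genes, 2.46% passed for fasting by diet and 0 for fasting by genotype, diet by genotype or all 3 factors.

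Oxct1 lies on chromosome 15 at 4026383 to 4155344, plus strand, and its exons share 467 bases with the opposite-strand transcript BC037032. It was the gene with the fewest reads, 6 to 113 counts per mouse, and with the widest spread. In WT LF mice it was at 9.61, 10.7 and 15.5 CPM when fed and at 7.45, 2.41, 5.61 and 6.33 CPM when fasted. In WT HF mice it was at 3.50, 8.78, 9.53 and 21.3 CPM when fed and at 6.33, 6.39, 3.03 and 17.7 CPM when fasted. Of these, only the WT LF groups were apart, as for 20.1% of all genes in that comparison, and the exact permutation test there gave 0.05714. In KO LF mice it was at 3.52, 6.32, 3.78 and 7.20 CPM when fed and at 11.0, 4.38, 8.44 and 3.91 CPM when fasted. In KO HF mice it was at 39.5, 5.99, 9.61 and 9.62 CPM when fed and at 8.37, 5.45 and 4.60 CPM when fasted. The fed KO HF replicate 1 held the highest level of the 30 mice, and the KO HF groups overlapped.

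Fed mice were at 11.0 ± 9.17 CPM and fasted mice at 6.76 ± 3.77 CPM (n = 15 each), a log2 fold change of -0.63 (SE 0.29, unadjusted p = 0.03528, adjusted p = 0.1329). The fasting effect on Oxct1 was -0.40 without KO HF fed replicate 1 (adjusted p = 0.3004), and -0.80 without WT HF fasted replicate 4 (adjusted p = 0.03539), the single one of the 30 fits without 1 mouse that passed. It also passed within lane 8 (-0.94, adjusted p = 0.04321). The 3 libraries with the highest Oxct1 level were also the 3 with the highest sum of 6 skeletal muscle markers: KO HF fed replicate 1 with 1220 CPM, WT HF fed replicate 4 with 634 CPM and WT HF fasted replicate 4 with 274 CPM. The other 27 libraries held at most 28.0 CPM of these markers. The defining markers Acta1, Ckm and Myh4 were at 0 counts in 20, 22 and 24 of the 30 mice. Without these 3 libraries the fasting effect on Oxct1 was -0.43 (SE 0.22, adjusted p = 0.212) and the diet effect -0.06 (SE 0.22), against 0.48 with them. Pearson's r of Oxct1 with the summed skeletal muscle markers was 0.66 on the log2(CPM + 1) scale over the 30 mice, which share lanes and include the groups, and 0.51 with the heart markers. Oxct1 was at 1160 CPM in the library labelled KO HF fasted replicate 4, which held the heart markers, and at 22.4 CPM in WT LF fed replicate 2.

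**Figure D3:**
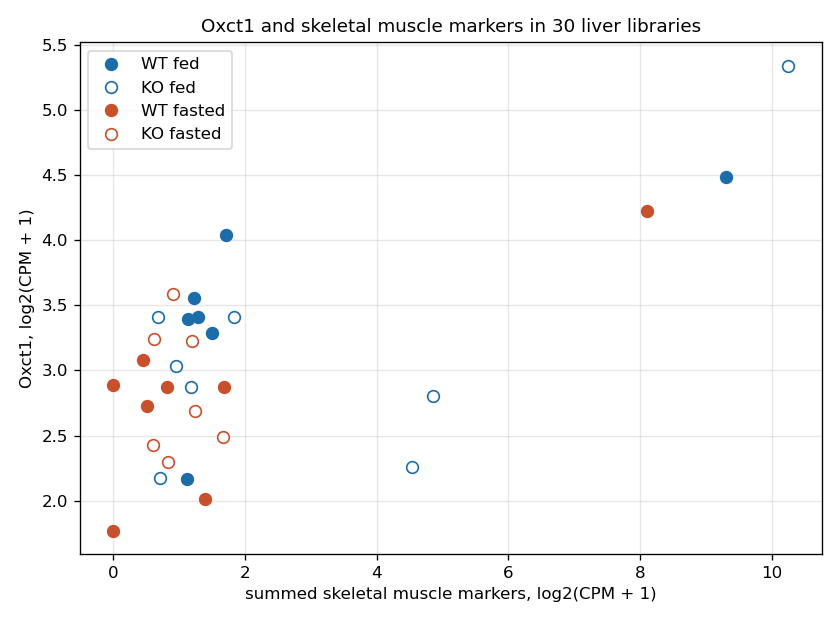
Oxct1 level against the summed level of 6 skeletal muscle markers in the 30 mice, both as log2(CPM + 1), with fed mice in blue, fasted mice in orange, WT filled and KO open. The 3 libraries at the right, with 274 to 1220 CPM of muscle markers, hold the 3 highest Oxct1 levels, 17.7 to 39.5 CPM.

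Bdh2, a cytosolic dehydrogenase also described as acting on 3-hydroxybutyrate, fell with fasting by 1.48 on the log2 scale (SE 0.16, adjusted p = 3.095e-09). Averaged over the groups, Bdh1 and Bdh2 were both higher on the HF diet, Bdh2 by 0.63 (SE 0.16, adjusted p = 0.01564). For Bdh2 this lay in fasted mice, with means of 4.98 CPM on the LF and 15.0 CPM on the HF diet in WT. In fasted KO mice they were 4.84 and 10.7 CPM. In fed mice the Bdh2 means were 20.1 and 22.65 CPM in WT, and 25.9 and 20.4 CPM in KO. The fall of Bdh2 with fasting was smaller on the HF than on the LF diet (difference 1.42, SE 0.31, adjusted p = 0.008637), where 2.46% of all genes passed.

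Of 3 tested genes of 5 listed that use acetoacetate or form acetoacetyl-CoA, 2 fell with fasting, as did 9.14% of all genes. Aacs, the cytosolic acetoacetyl-CoA synthetase that feeds acetoacetate into lipid synthesis, fell by 3.41 on the log2 scale (SE 0.38, adjusted p = 3.433e-07). Acat2, the cytosolic thiolase of the sterol pathway, fell by 1.55 (SE 0.14, adjusted p = 1.866e-09). The third was Oxct1.

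Among the other monocarboxylate transporters, Slc16a5 rose with fasting by 2.89 (SE 0.27, adjusted p = 9.76e-10), more than Slc16a1. In LF mice it was at 1.38 ± 0.490 CPM when fed and 29.0 ± 13.4 CPM when fasted in WT, and at 0.571 ± 0.665 and 26.2 ± 15.1 CPM in KO. In HF mice it was at 11.5 ± 5.84 and 15.0 ± 4.38 CPM in WT, and at 5.25 ± 1.87 and 14.6 ± 4.78 CPM in KO, and its rise with fasting was smaller on the HF diet (difference -3.94, SE 0.56, adjusted p = 7.989e-05). The LF fed levels are near that of 3 counts, so that the fold depends on few reads. Slc16a7 (MCT2) rose by 0.76 (SE 0.16, adjusted p = 0.0006373). Slc16a10, Slc16a11, Slc16a12 and Slc16a13 did not pass for fasting, with log2 fold changes of -0.27 to 1.06. Bsg, which encodes the chaperone of MCT1 at the membrane, was at -0.02 (SE 0.07, adjusted p = 0.8893). Averaged over the groups, Slc16a5 was also higher on the HF diet, by 1.07 (SE 0.28, adjusted p = 0.02601). By the group means above, it was higher on the HF diet in fed mice only. In fasted mice of both genotypes it was lower on the HF diet.

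**Figure D4:**
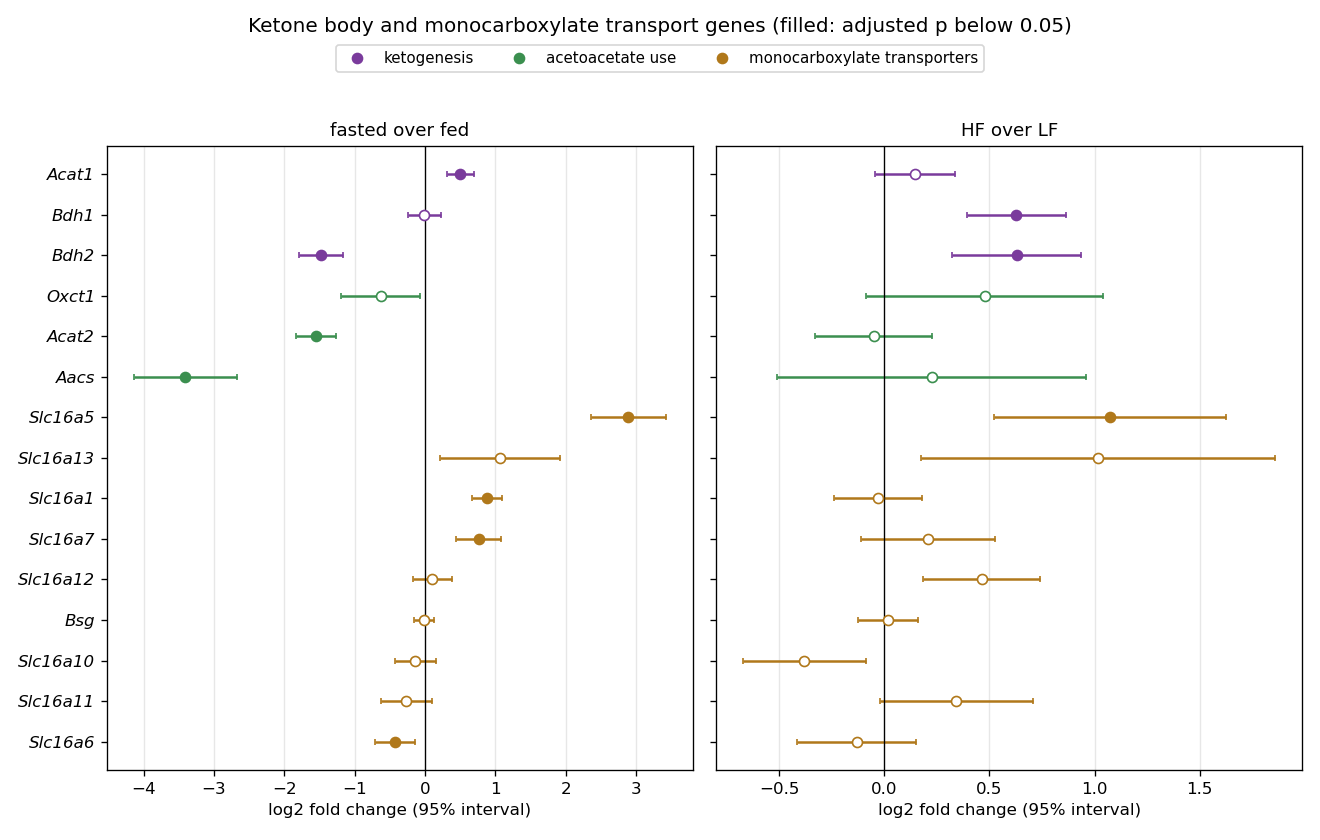
Log2 fold changes with 95% intervals of genes listed under ketogenesis, acetoacetate use and monocarboxylate transport. Fasted over fed mice are on the left and HF over LF mice on the right, on axes of different range. Filled points passed the adjusted p threshold. With fasting, Acat1 lies to the right of 0 and Bdh2, Acat2 and Aacs to the left, and in the diet panel Bdh1, Bdh2 and Slc16a5 are filled.

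Of 11 genes that bring fatty acids into mitochondria and shorten them, 9 rose with fasting and 0 fell (9.77% and 9.14% of all genes). The smallest p were those of Slc25a20 (1.15, SE 0.08, adjusted p = 3.441e-13) and Cpt1a (1.40, SE 0.12, adjusted p = 3.135e-11), which encode the carnitine shuttle, with Cpt2 (1.06, SE 0.10) and the dehydrogenase gene Acadl (0.69, SE 0.08). Of this list 1 gene, Hadh, rose with diet (0.36, SE 0.08, adjusted p = 0.004778). Of 12 listed target genes of PPAR-alpha, the nuclear receptor that drives fatty acid oxidation genes in fasting, 11 rose with fasting and Pdk4 did not pass (0.32, SE 0.37). The changes ran up to 4.97 for Cyp4a14 and included 3.66 for Acot1, 4.22 for Cyp4a10 and 2.16 for Angptl4, larger than those of Slc16a1 and Acat1. The rise with fasting differed between diets for 4 of these 12 genes and for 4 of the 11 genes above, each smaller on the HF diet. Such a difference passed for 2.46% of all genes. None of the 12 passed for diet, and none of any of these lists passed for genotype.

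By Pearson's r of log2(CPM + 1) over the 30 mice, among 7396 genes with a mean of at least 10 CPM, the genes most like Slc16a1 were Pctp (r 0.89), Mgll (0.89) and Acsl1 (0.89). All 3 rose with fasting, by 1.17, 1.30 and 1.52. Those most like Acat1 were Acad11 (0.91), Hsd17b4 (0.90) and Etfdh (0.89), which rose by 0.98, 0.83 and 0.91. The group means behind these values move together, so that r is a description of the 30 mice.

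Among the genes most like Bdh1 were Iigp1 (0.79) and Isg15 (0.77), which are known as interferon-induced genes. They were higher on the HF diet by 0.70 (adjusted p = 0.0003169) and 0.98 (adjusted p = 5.092e-05). Both were picked for their r with Bdh1 in the same mice, so that these diet effects are not independent of that of Bdh1. Those most like Oxct1 were Neb (0.71), Des (0.69) and Slc25a4 (0.68), of which Neb and Des encode muscle structural proteins. Those most like Slc16a6 were Id2 (0.77), Midn (0.74) and Fam120a (0.73).

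Within the 5 genes, r over the 30 mice was 0.58 for Acat1 and Slc16a1 and between -0.32 and 0.31 for the 9 other pairs. After the group means were taken off, it was 0.17 for Acat1 and Slc16a1, 0.49 for Bdh1 and Acat1 and 0.41 for Bdh1 and Slc16a1.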

How the data were processed

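The authors made 3′ mRNA libraries (QuantSeq, single reads) from livers of 32 mice, mapped the reads to GRCm38 with HISAT 0.1.5, sorted them with SAMtools 1.2 and counted reads per Ensembl gene with HTSeq 0.6.1p1 in union mode, and deposited these raw counts, 1 column per mouse, without normalization. The strand setting of the counting is not given in the sources used here. Here, edgeR 4.0.16 (R 4.3.3) was used with filterByExpr, TMM factors and the robust quasi-likelihood F test on a model with 8 groups over 30 mice, with Benjamini-Hochberg adjustment over 11566 genes and a threshold of 0.05. Every adjusted or unadjusted p comes from this fit unless another is named. 95% intervals are 1.96 SE on each side, which is somewhat narrower than the F test implies. An interval can therefore exclude 0 where the unadjusted p is above 0.05. An example is Oxct1 between genotypes in LF fed mice (-2.34 to -0.04, unadjusted p = 0.05148). In this fit a group effect averages the same difference over the other factors with equal weight, and the comparisons share mice. The fits within a lane instead had 1 term each for feeding, diet and genotype. Differences within single combinations were also tested by a two-sided exact permutation test on log2(CPM + 1). The edgeR test was checked on simulated counts for the fasting and diet effects. The permutation test was not checked in this way.

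The 5 genes, the pathway lists and the marker lists were chosen with earlier results of these data known. The rule for named genes took the 5 members, Acadm and other pathway genes, up to 4 genes per direction of each pathway list with the smallest adjusted p for fasting and up to 2 for diet, and for each member the 3 genes of highest Pearson's r; some genes it names are not reported here. Arsg, Amz2, Bsg, Cyp4a14, Pdk4 and the single marker genes that passed fall outside it and were chosen after their values were seen. Gene positions and exon overlaps are from GENCODE vM21 and promoter windows from RefSeq (3 of 5 members had an entry). Depth, 2031053 to 4292200 counts per mouse, limits the lowly counted Oxct1 most. Mice of the same replicate number did not deviate together (r -0.08 to 0.16 over 14 pairs of fed and fasted mice), and no 2 libraries of a group agreed within sampling noise (chi-square per gene at least 4.17 over 48 pairs). Alternatives were other samples, DESeq2 1.42.0, limma 3.58.1 voom, other filters, lane, age and replicate terms, and each mouse left out. The settings without libraries high in muscle or pancreas markers were added after seeing the data.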

Additional observations from a re-analysis of the deposited data

Results flagged for a closer look

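Of 30 groups of 4 mice (5 genes in 6 groups), 3 held a mouse whose gap to the nearest other exceeded Dixon's limit for its share of the whole range, where chance gives about 1 in 20. All 3 were KO HF fed mice. Replicate 4 stood below the others for Acat1, at 605 CPM (gap 0.906 of the range), and for Slc16a6, at 16.0 CPM (gap 0.849). Replicate 1 stood above the others for Oxct1, at 39.5 CPM (gap 0.892), and it also held the highest sum of skeletal muscle markers. In the library labelled KO HF fasted replicate 4, which was left out and held heart markers, Oxct1 was at 1160 CPM and Slc16a1 at 123 CPM. The highest levels in the 30 mice on the same scale were 39.8 and 102 CPM.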

How the results depend on the processing

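The rises of Slc16a1 and Acat1 with fasting and of Bdh1 with diet passed the threshold in each of the 30 fits that left out 1 mouse, and that of Slc16a1 also in every other alternative run. The fall of Slc16a6 did not hold in 8 of the 30 (adjusted p up to 0.08346, in the fit without WT LF fed replicate 1). The other 7 were without WT HF fasted replicate 1, KO LF fed replicate 1, KO LF fasted replicates 2 and 4, KO HF fed replicates 1 and 3, or KO HF fasted replicate 1. No paired design is given by the labels. With the replicate number as a block the fasting effects on Slc16a1, Acat1 and Slc16a6 were 0.90, 0.48 and -0.44 and the diet effect on Bdh1 0.62, all past the threshold, while the fasting effect on Acat1 in KO LF mice was 0.53 (adjusted p = 0.05454). The counts of members called were 2 to 4 for fasting, 1 for diet and 0 for genotype when 1 mouse was left out. They were 1 for fasting within lane 7, and 0 for diet with all 32 mice and within lane 8. Over all genes, the 2187 calls for fasting were 344 within lane 7 and 1449 within lane 8, and the 404 calls for diet were 81 with all 32 mice, 53 within lane 7, 85 within lane 8. Each lane held 16 of the 32 mice by the labels, while the study's methods state smaller pools per lane. Oxct1 could not be fitted where at least 10 counts were required in every mouse. The causes of the shifts below were not tested.

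With lane as a term, signs turned to 0.013 for the fasting effect on Bdh1, 0.021 for the genotype effect on Acat1 in LF fed mice and -0.10 for the term of all 3 factors of Slc16a6. With age as a covariate, the side of the threshold changed, with -0.39 (adjusted p = 0.06368) for the fasting effect on Slc16a6. Signs turned there to 0.0077 for the fasting effect on Bdh1 and -0.023 for the term of all 3 factors of Slc16a6. Within lane 8, the side of the threshold changed, with 0.51 (adjusted p = 0.2598) for the diet effect on Bdh1, -0.94 (adjusted p = 0.04321) for the fasting effect on Oxct1 and -0.42 (adjusted p = 0.3298) for the fasting effect on Slc16a6. Signs turned there to 0.16 for the fasting effect on Bdh1 and 0.084 for the diet effect on Slc16a1. Without the 2 libraries high in acinar pancreas markers, the side of the threshold changed, with -0.40 (adjusted p = 0.06393) for the fasting effect on Slc16a6 and 0.78 (adjusted p = 0.04756) for that on Slc16a1 in WT HF mice. Signs turned there to 0.011 for the fasting effect on Bdh1, -0.0081 for the genotype effect on Acat1 in HF fasted mice, -0.35 for the genotype effect on Oxct1 in HF fed mice, 0.013 for the diet effect on Slc16a1, -0.064 for the genotype effect on Slc16a1 in HF fasted mice, -0.021 for the diet effect on Slc16a6 in KO fed mice and 0.011 for the fasting by genotype term of Slc16a6. With all 32 mice, the side of the threshold changed, with 0.55 (adjusted p = 0.06902) for the diet effect on Bdh1, 0.77 (adjusted p = 0.1656) for that in KO fasted mice, 0.85 (adjusted p = 0.07943) and 0.56 (adjusted p = 0.2532) for the fasting effect on Acat1 in WT LF and KO LF mice, 0.98 (adjusted p = 0.04887) for that on Slc16a1 in KO HF mice and -0.42 (adjusted p = 0.05034) for the fasting effect on Slc16a6. Signs turned there to 0.035 for the genotype effect on Acat1 in LF fed mice, -0.066 for the genotype effect on Acat1 in HF fasted mice, 0.69 for the fasting effect on Oxct1, 1.14 for the genotype effect on Oxct1, 4.18 for the fasting effect on Oxct1 in KO HF mice, 5.43 for the diet effect on Oxct1 in KO fasted mice, 5.17 for the genotype effect on Oxct1 in HF fasted mice, 2.39 for the fasting by diet term of Oxct1, 2.84 for the term of all 3 factors of Oxct1, 0.022 for the diet effect on Slc16a1 and 0.065 for the fasting by genotype term of Slc16a6. Without the 3 libraries high in muscle markers, the side of the threshold changed, with -0.41 (adjusted p = 0.07379) for the fasting effect on Slc16a6 and 0.55 (adjusted p = 0.05522) for that on Acat1 in KO LF mice. Signs turned there to 0.053 for the genotype effect on Bdh1 in HF fasted mice, 0.029 for the fasting by genotype term of Bdh1, -0.056 for the diet effect on Oxct1, -0.084 for the diet effect on Oxct1 in WT fasted mice, 0.24 for the genotype effect on Oxct1 in HF fasted mice, 0.067 for the genotype effect on Slc16a1 in HF fed mice, -0.018 for the diet effect on Slc16a6 in KO fed mice and 0.017 for the fasting by genotype term of Slc16a6. Within lane 7, the side of the threshold changed, with 0.34 (adjusted p = 0.3375) for the fasting effect on Acat1 and -0.48 (adjusted p = 0.2532) for the fasting effect on Slc16a6. Signs turned there to 0.79 for the genotype effect on Oxct1, 0.16 for the genotype effect on Slc16a1 and 0.13 for the genotype effect on Slc16a6. With 31 mice, the WT LF fed replicate 2 added back, the fasting effect on Acat1 in KO LF mice no longer passed (0.56, adjusted p = 0.05773), and signs turned to 0.035 for the genotype effect on Acat1 in LF fed mice, 0.0012 for the fasting by genotype term of Slc16a6 and -0.050 for the term of all 3 factors of Slc16a6. With the replicate number as a block, signs turned to -0.0086 for the term of all 3 factors of Slc16a6. With only the 2 groups compared in the fit, the calls lost were the fasting effect on Acat1 in KO LF mice (0.55, adjusted p = 0.2245) and the diet effect on Bdh1 in KO fasted mice (1.01, adjusted p = 0.2507).

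Where leaving out 1 mouse turned a sign or changed the side of the threshold, the lowest and highest values follow. For Bdh1, the range was -0.087 to 0.051 for the fasting effect on Bdh1, -0.43 to 0.028 for the fasting effect on Bdh1 in WT LF mice, 0.54 to 0.998 and 0.78 to 1.25 for the diet effect on Bdh1 in WT fasted and KO fasted mice, -0.29 to 0.18 for the genotype effect on Bdh1 in HF fasted mice, -0.16 to 0.12 for the fasting by genotype term of Bdh1 and -0.013 to 0.26 for the diet by genotype term of Bdh1. For Acat1, the range was 0.70 to 0.82 and 0.38 to 0.76 for the fasting effect on Acat1 in WT LF and KO LF mice, -0.059 to 0.32 for the diet effect on Acat1 in KO fasted mice, -0.11 to 0.011 for the genotype effect on Acat1 in LF fed mice, -0.15 to 0.034 for the genotype effect on Acat1 in HF fed mice, -0.095 to 0.20 for the genotype effect on Acat1 in HF fasted mice and -0.12 to 0.072 for the fasting by genotype term of Acat1. For Oxct1, the range was -0.80 to -0.40 for the fasting effect on Oxct1, -1.06 to 0.15 for the fasting effect on Oxct1 in WT HF mice, -0.69 to 0.15 for the diet effect on Oxct1 in WT fed mice, -0.086 to 0.86 for the diet effect on Oxct1 in WT fasted mice, -0.43 to 0.18 for the diet effect on Oxct1 in KO fasted mice, -0.031 to 0.49 for the genotype effect on Oxct1 in LF fasted mice, -0.35 to 1.13 for the genotype effect on Oxct1 in HF fed mice, -0.71 to 0.24 for the genotype effect on Oxct1 in HF fasted mice and -0.029 to 0.72 for the fasting by genotype term of Oxct1. For Slc16a1, the range was 0.46 to 0.74, 0.49 to 0.78 and 0.57 to 0.94 for the fasting effect on Slc16a1 in WT LF, WT HF and KO HF mice, -0.076 to 0.017 for the diet effect on Slc16a1, -0.16 to 0.056 for the genotype effect on Slc16a1 in HF fed mice and -0.088 to 0.28 for the genotype effect on Slc16a1 in HF fasted mice. For Slc16a6, the range was -0.53 to -0.37 for the fasting effect on Slc16a6, -1.07 to -0.43 for that in KO LF mice, -0.11 to 0.31 for the diet effect on Slc16a6 in KO fed mice, -0.25 to 0.073 for the fasting by genotype term of Slc16a6 and -0.19 to 0.46 for the term of all 3 factors of Slc16a6.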
